A study of Mus musculus with 12 samples.

Results

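The Kruppel-like factors described here are 10 listed genes, Klf2, Klf3, Klf4, Klf5, Klf6, Klf7, Klf9, Klf10, Klf13 and Klf15, out of 22180 genes that could be named on the array. They were found by the gene symbol that the array annotation gives to a transcript cluster, the probe group that stands for a transcript. All 10 had a cluster with 1 symbol, 11 clusters in all, and the brightest cluster over the 12 arrays was taken for Klf7, the only member with more than 1. Crypt-enriched tissue had been laser-microdissected from the proximal small intestine of 6 Zfp148gt/+APCMin/+ mice (from here on Zfp148gt/+ mice) and 6 Zfp148+/+APCMin/+ mice (controls), untreated, 12 weeks old and of mixed genetic background, with 1 Affymetrix Gene 2.0 ST array per mouse. The methods name littermates as controls, but the labels tie no mouse to a litter and give no sex. Y-linked genes averaged a log2 signal of 2.16 in Zfp148gt/+ mice 892 and 893, and 2.24 and 2.15 in controls 895 and 899. In every other mouse that average was 4.49 to 5.52, so both genotypes held mice with and without Y-linked signal. The gt allele is a gene trap carried in every cell, so stroma and epithelium alike carry it on 1 copy of Zfp148, and all mice of both groups carried the Min allele of Apc, a truncating mutation that gives rise to intestinal adenomas. The comparison asks whether loss of 1 Zfp148 allele goes with a change in expression in normal crypts.

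Kruppel-like factors are transcription factors with zinc fingers at the carboxyl end that bind GC boxes and CACCC boxes in promoters, and Zfp148 is itself a zinc finger factor of GC-rich sites. Some members activate and others repress, and members compete for shared sites. In the intestine Klf5 is known from the dividing cells of the crypt, where it promotes proliferation, while Klf4 is known from differentiated villus cells and goblet cells, where it holds back the cell cycle.

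The GC box stood in most promoters of the members, and those of Klf4, Klf3 and Klf9 are shown because they are the member that marks differentiation, the member with most GC boxes and the member with none. Of the 10 members, 8 had an entry among the RefSeq promoters of GRCm38.p6. The 250 bases before the start site of that entry were searched for GGGCGG, the core of the GC box, and for CACCC. Both strands were searched, and overlapping matches were counted. For Klf7 and Klf15 the window lay within the RefSeq gene span, before an inner start site. The GC box was found in 7 of the 8 members, against 32.7% of all 32851 promoter windows, and CACCC in 6 of the 8, against 52.0%. The windows of the members were also richer in G and C, with 59.2% to 78.4% against a median of 52.4% over all windows. Capitals mark GGGCGG or its reverse complement CCGCCC.
Klf4 (chr4:55532476-55532725, minus strand, 4 matches): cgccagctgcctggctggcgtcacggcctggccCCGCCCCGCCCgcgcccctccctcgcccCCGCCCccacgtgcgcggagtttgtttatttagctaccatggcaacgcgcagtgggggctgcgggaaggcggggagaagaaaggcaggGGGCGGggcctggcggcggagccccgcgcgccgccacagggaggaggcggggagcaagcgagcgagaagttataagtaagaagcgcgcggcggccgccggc
Klf3 (chr5:64803271-64803520, plus strand, 6 matches): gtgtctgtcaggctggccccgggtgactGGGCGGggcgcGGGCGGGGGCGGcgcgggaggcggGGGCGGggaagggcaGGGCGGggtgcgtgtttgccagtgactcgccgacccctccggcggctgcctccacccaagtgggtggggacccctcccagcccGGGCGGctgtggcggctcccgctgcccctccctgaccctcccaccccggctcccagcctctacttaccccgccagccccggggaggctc
Klf9 (chr19:23140976-23141225, plus strand, no match): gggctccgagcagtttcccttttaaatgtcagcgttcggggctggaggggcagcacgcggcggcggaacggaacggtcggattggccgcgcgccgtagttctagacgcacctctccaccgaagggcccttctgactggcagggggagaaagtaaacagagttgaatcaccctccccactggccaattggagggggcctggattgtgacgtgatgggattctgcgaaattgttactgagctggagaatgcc
A match describes letters in this window and no occupied site. Klf13 had 3 matches of the GC box, Klf2 had 2, and Klf6, Klf7 and Klf15 had 1 each, while Klf5 and Klf10 were not among the promoters used.

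No Kruppel-like factor differed between Zfp148gt/+ crypts and control crypts by more than the spread between mice. At a limma adjusted p under 0.05, 0 of the 10 members were called, as was no cluster of the array (0 of 33793, 0%). At an unadjusted limma p under 0.05, again 0 of 10 members stood out, against 6.76% of all clusters (3.88% higher and 2.88% lower), and the methods' t-test gave 0 members as well, against 6.70% (no cluster after Benjamini-Hochberg adjustment). In all 10 genes the values of the 6 Zfp148gt/+ mice overlapped with those of the 6 controls (0.225% of all clusters lay without overlap above and 0.0829% below the controls). The mean was lower in Zfp148gt/+ mice for 7 members and higher for 3, and the median of the 10 log2 fold changes was -0.06. Centring each array on its median turned Klf3 and Klf13 to a lower mean, and quantile normalization once more turned Klf2 and Klf4 to a higher one. Over all clusters 45.2% had a lower mean and the median was 0.02, but all 10 members lie above the median signal of the array, and among those brighter clusters 58.4% were lower with a median of -0.04. Limma adjusted p of the members lay between 0.800 and 0.987, and exact permutation p (two-sided) between 0.227 and 0.900.

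Zfp148 itself was lower in all 6 Zfp148gt/+ mice than in any control, at a log2 signal of 5.45 ± 0.37 in Zfp148gt/+ mice and 6.34 ± 0.31 in controls (SD, n = 6 each). The two-sided exact permutation p was 0.0022, the smallest that 6 against 6 can give, while the limma adjusted p was 0.676. The arrays had medians of 2.64 to 2.78 and median correlations of 0.967 to 0.978 with the other arrays, and mice 891, 892 and 893 had the lowest. The interquartile range of an array was narrower in Zfp148gt/+ mice, 2.77 ± 0.09, than in controls, 2.92 ± 0.07 (SD, n = 6 each, exact permutation p = 0.0173). The epithelial markers Epcam, Krt8, Cdh1 and others had a mean log2 signal of 9.28 ± 0.08 in Zfp148gt/+ mice and 9.33 ± 0.09 in controls. In tissue of this kind fewer cells of a type and less RNA per cell cannot be told apart. Fibroblast markers were present too and had lower means in 15 of 15 genes, 6 of them at an unadjusted limma p under 0.05, with a score (mean log2 signal of the list) of 6.26 to 6.83 in Zfp148gt/+ mice and 6.56 to 7.34 in controls. Smooth muscle markers had lower means in 8 of 8, 1 of them at that unadjusted p, and macrophage markers in 12 of 12, none of them at it. Over all clusters 45.2% had a lower mean, and 58.4% of those above the median signal did. At an unadjusted limma p under 0.05, 2.88% of all clusters were lower. With the score of fibroblast and smooth muscle markers as a covariate, the log2 fold change was -0.11 for Klf10 (against -0.22 without it), 0.37 for Klf15 (against 0.17) and 0.18 for Klf13 (against 0.04), and none was called. The part of these cells in the values was not tested otherwise.

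**Figure D1:**
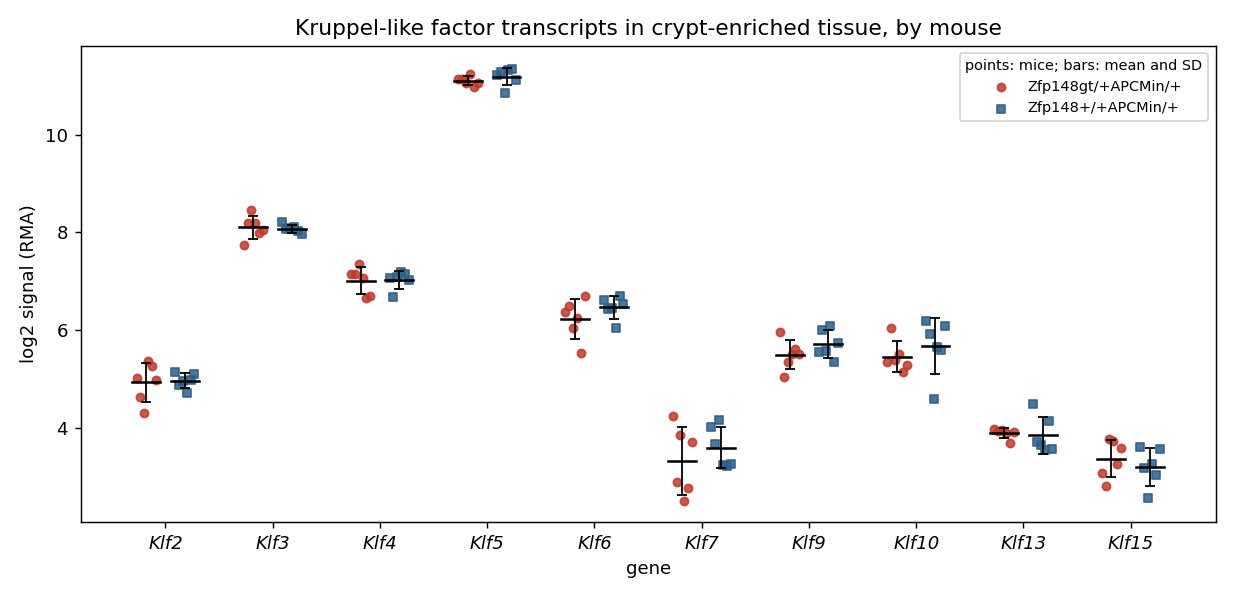
Log2 signal (RMA) of the 10 Kruppel-like factors in each mouse, Zfp148gt/+APCMin/+ in red circles and Zfp148+/+APCMin/+ in blue squares, 6 mice each, with mean and SD as black bars. The groups overlap in every gene, Klf5 has the narrowest spread and Klf7 the widest, and signals of different genes come from different probes and are not amounts to be set against each other.

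Klf5, the factor of crypt proliferation, varied little between mice. Its log2 signal was 11.14, 11.15, 11.05, 11.24, 10.98 and 11.06 in Zfp148gt/+ mice 783, 891, 892, 893, 897 and 911, against 11.21, 11.29, 10.86, 11.32, 11.34 and 11.11 in control mice 782, 885, 888, 889, 895 and 899. All 6 Zfp148gt/+ mice lay within the range of the controls, whose own range was set at the low end by mouse 888. The means were 11.10 ± 0.09 in Zfp148gt/+ mice and 11.19 ± 0.18 in controls (SD, n = 6 each), which is 0.941 of the control level with a 95% confidence interval of 0.816 to 1.09. Limma gave an adjusted p of 0.866 and the exact permutation test p = 0.318. The spread of Klf5 within a genotype, an SD of 0.14, was the smallest of the 10 members, against a median of 0.31 over clusters above the median signal. Klf5 was brighter than 99.4% of all clusters, and its spread was not compared with that of clusters as bright.

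Klf4, the factor of differentiation, had nearly equal means with all mice, and the sign of the difference turned with the scaling. It had a log2 signal of 7.14, 7.15, 7.36, 7.06, 6.66 and 6.69 in the Zfp148gt/+ mice, in the order of mice given for Klf5, against 7.06, 6.67, 7.08, 7.18, 7.14 and 7.02 in the controls. Low values near 6.7 occurred in both genotypes, in Zfp148gt/+ mice 897 and 911 and in control mouse 885, and mouse 892 was the highest of all. Klf4 averaged 7.01 ± 0.28 in Zfp148gt/+ mice and 7.02 ± 0.18 in controls (SD, n = 6 each), a ratio of 0.989 (95% confidence interval 0.809 to 1.21, limma adjusted p = 0.987, exact permutation p = 0.900). Quantile normalization once more put its log2 fold change at 0.04, against -0.02 as deposited, and it was -0.24 with the interquartile range of the arrays as a covariate and -0.20 without mice 891, 892 and 893, neither of them called.

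The balance of Klf5 and Klf4 was compared within each mouse as the difference of their log2 signals, in which a shift shared by a whole array cancels. A change of scale does not cancel in this difference. This difference was 4.0, 4.0, 3.69, 4.18, 4.32 and 4.37 in Zfp148gt/+ mice and 4.16, 4.62, 3.78, 4.14, 4.20 and 4.09 in controls. It is meaningful only between genotypes, since the probes of both genes differ. The mean was 4.09 ± 0.25 in Zfp148gt/+ mice and 4.16 ± 0.27 in controls (SD, n = 6 each), and these differed by -0.07 (exact permutation test, two-sided p = 0.647). The highest values of the difference belonged to control mouse 885 and to Zfp148gt/+ mice 911 and 897, the 3 mice low in Klf4, and the groups overlapped. Shifts between -0.405 and 0.245 on the log2 scale were not rejected by that test at the 0.05 threshold. With the interquartile range of the arrays as a covariate, the log2 fold change was -0.17 for Klf5 and -0.24 for Klf4. Their difference was not tested with that covariate. Over the 12 mice Klf4 and Klf5 had a Pearson r of 0.13 (permutation p = 0.692) and a Spearman rho of 0.17 (permutation p = 0.588), with r at 0.44 within Zfp148gt/+ mice and -0.08 within controls, and at 0.16 without mice 897 and 885, the farthest from the median of Klf4.

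**Figure D2:**
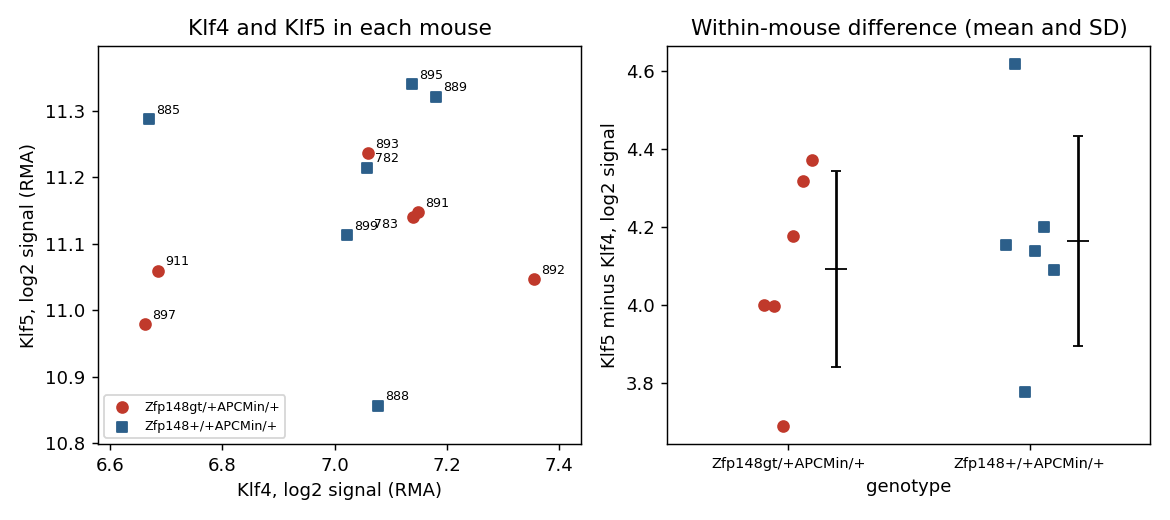
Left, log2 signal of Klf5 against that of Klf4 in each numbered mouse; right, the difference Klf5 minus Klf4 by genotype, Zfp148gt/+APCMin/+ on the left, with mean and SD. Neither a shared trend of both genes nor a shift between genotypes is seen, the mean being 4.09 in Zfp148gt/+APCMin/+ and 4.16 in Zfp148+/+APCMin/+ mice.

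Genes known as targets of Klf4 and Klf5, mostly from human cell lines, are given by their values. None was called, but no cluster of the array was (lowest limma adjusted p, 0.625), so this does not set them apart. Cdkn1a, the cell cycle inhibitor p21 that KLF4 induces, was at 7.29 ± 0.50 in Zfp148gt/+ mice and 7.61 ± 0.35 in controls, and Alpi, the alkaline phosphatase of the villus, was at 5.83 ± 0.53 in Zfp148gt/+ mice and 5.38 ± 0.90 in controls (SD, n = 6 each). Among 4 measured genes that KLF4 represses, 1 had a higher and 3 a lower mean, with the polyamine enzyme Odc1 at a log2 fold change of 0.11 and cyclin D1, Ccnd1, at -0.19. Of 6 measured genes that KLF5 induces, Ccnd1 again among them, 1 was higher and 5 lower, the median log2 fold change being -0.11. Among all clusters above the median signal 58.4% were lower, with a median of -0.04. Of the KLF5-induced genes 1 had an unadjusted limma p under 0.05, the mitotic kinase Cdk1. It was at 8.14 ± 0.11 in Zfp148gt/+ mice and 8.37 ± 0.19 in controls. Its log2 fold change was -0.23 with an interval of -0.45 to -0.01 (adjusted p = 0.731 in limma). At that unadjusted limma p, 2.88% of all clusters were lower. Proliferation genes as a list gave a mean signal of 7.25 ± 0.15 in Zfp148gt/+ mice and 7.27 ± 0.12 in controls, and villus enterocyte genes gave 6.12 ± 0.42 in Zfp148gt/+ mice and 6.25 ± 0.33 in controls. Goblet cell genes, of a lineage that needs Klf4 in the colon, had 5 higher and 6 lower means, with a score of 9.42 ± 0.18 in Zfp148gt/+ mice and 9.47 ± 0.23 in controls. No relation of Klf5 to the proliferation score was found across the 12 mice (Pearson r = -0.39, permutation p = 0.209, and Spearman rho = -0.18, permutation p = 0.574), nor of Klf4 to the villus score (r = -0.12, permutation p = 0.710, and rho = -0.16, permutation p = 0.619). The adjusted p over 6 such relations was 0.710 for every r and 0.619 for every rho. Without the 2 mice farthest from the median of the factor, r was -0.18 for Klf5 and -0.57 for Klf4.

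Klf6, Klf9 and Klf10, which are known as early response or hormone responsive members, had lower means in Zfp148gt/+ mice within overlapping ranges. Klf6, a factor induced by injury, was at 6.36, 6.49, 6.04, 6.25, 5.52 and 6.68 in Zfp148gt/+ mice, against 6.61, 6.43, 6.46, 6.04, 6.70 and 6.53 in controls. Only mouse 897 lay below the controls, and without it the log2 fold change was -0.10, against -0.24 with all mice (interval -0.62 to 0.15, adjusted p = 0.800 in limma). With the stromal covariate the value for Klf6 was -0.01, and the part of stromal RNA in it was not tested further. Klf9, induced by glucocorticoid and thyroid hormone, was at 5.96, 5.04, 5.35, 5.50, 5.62 and 5.50 in Zfp148gt/+ mice and at 5.54, 6.0, 5.56, 6.08, 5.34 and 5.74 in controls. Mouse 891 alone was below every control, and the log2 fold change was -0.22, with an interval of -0.56 to 0.13 and a limma adjusted p of 0.800. Leaving out 1 mouse gave -0.31 (without mouse 783) to -0.12 (without mouse 891), and leaving out mice 891, 892 and 893 together gave -0.02.

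Glucocorticoid-induced genes had a lower mean in 9 of 9 (45.2% of all clusters did, and 58.4% of those above the median signal, where all 9 lie), at a median of -0.28 for the log2 fold change, and 1 had an unadjusted p under 0.05, the phosphatase Dusp1, at 5.12 ± 0.12 in Zfp148gt/+ mice and 5.51 ± 0.29 in controls (limma adjusted p = 0.725). Dusp1 is also on the list of immediate early genes, and 2.88% of all clusters were lower at that unadjusted limma p. The score of the glucocorticoid list was 5.62 ± 0.24 in Zfp148gt/+ mice and 5.87 ± 0.34 in controls, and Klf9 had no relation to it that passed (r = -0.18, permutation p = 0.583, and rho = -0.24, permutation p = 0.447, over 12 mice). Within Zfp148gt/+ mice that r was -0.77 (exact permutation p = 0.0625), within controls -0.13, and without the 2 mice farthest from the median of Klf9 it was -0.05. Clock genes, to which Klf9, Klf10 and Klf15 are linked, had a lower mean in 10 and a higher mean in 4 of 14. Of these, Cry1 and Cry2, both repressors of the clock, had log2 fold changes of -0.36 and -0.33 with limma adjusted p of 0.741 and 0.746. Cry2 was dim, at 2.50 in Zfp148gt/+ mice and 2.82 in controls, near the median cluster at 2.71.

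Klf10, a repressor induced by TGF-β, was at 5.34, 6.04, 5.38, 5.51, 5.13 and 5.29 in Zfp148gt/+ mice, against 6.18, 5.92, 4.59, 5.64, 5.60 and 6.07 in controls. All 6 Zfp148gt/+ mice lay within the range of the controls, whose low end was set by control mouse 888, the lowest of all 12. The means were 5.45 ± 0.32 in Zfp148gt/+ mice and 5.67 ± 0.57 in controls (SD, n = 6 each), which is -0.22 on the log2 scale with an interval of -0.74 to 0.30 (adjusted p = 0.868 in limma, exact permutation p = 0.433). Without control mouse 888 the log2 fold change was -0.43 with an unadjusted limma p of 0.0233. That was the lowest unadjusted p of the 12 fits of Klf10 with 1 mouse left out. It did not pass adjustment over all clusters (lowest adjusted p of Klf10 with 1 mouse left out, 0.826). The share of all clusters at such a p without mouse 888 was not taken. Without control mouse 782 it was -0.11, and without control mouse 899 it was -0.14. Mouse 888 was also the lowest in Klf5. Among the 45 pairs of members Klf5 and Klf10 had the strongest Pearson r across mice, 0.67 (permutation p = 0.0160, adjusted p = 0.719 over 45 pairs). Their Spearman rho was 0.60 (permutation p = 0.0429, adjusted p = 0.797). Their r was 0.56 within Zfp148gt/+ mice and 0.67 within controls, and 0.52 without mice 888 and 895, the farthest from the median of Klf5. The strongest rho was that of Klf2 and Klf4, -0.62 (permutation p = 0.0349, adjusted p = 0.797), with an r of -0.50 (permutation p = 0.0933). No pair of members passed the adjustment.

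**Figure D3:**
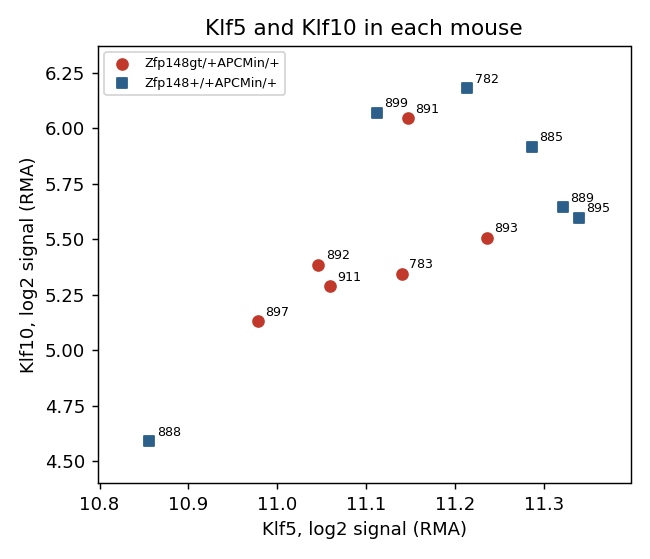
Log2 signal of Klf10 against that of Klf5 in each numbered mouse, Zfp148gt/+APCMin/+ in red circles and Zfp148+/+APCMin/+ in blue squares. Control mouse 888 lies lowest in both genes, at 10.86 for Klf5 and 4.59 for Klf10.

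Klf2 and Klf3, factors known from endothelium, lymphocytes and blood cells, had genotype means that nearly coincided. Klf2 had a log2 signal of 5.02, 4.63, 4.29, 5.37, 5.27 and 4.98 in Zfp148gt/+ mice and 5.14, 4.88, 4.95, 4.71, 4.98 and 5.10 in controls. The Zfp148gt/+ mice spread to both sides of the controls, 2 above all of them and 2 below, with an SD of 0.40 against 0.15 in controls, and the log2 fold change of -0.03 had an interval of -0.39 to 0.32. Endothelial markers were lower in 10 and higher in 3 of 13, with a score of 3.71 ± 0.25 in Zfp148gt/+ mice and 3.83 ± 0.32 in controls. Of these markers 1, Esam, was lower at an unadjusted limma p under 0.05, as were 2.88% of all clusters. Klf2 had an r of 0.30 with the endothelial score over 12 mice (permutation p = 0.346, rho = 0.22, permutation p = 0.482, and r = 0.36 without the 2 farthest mice). All 4 measured genes that KLF2 induces, the nitric oxide synthase Nos3, Thbd, S1pr1 and Itgb7, had higher means, at log2 fold changes of 0.03 to 0.20, and none was called. Over all clusters 18529 of 33793 had a higher mean, and 7031 of the 16896 above the median signal did. Nos3, at a mean of 2.76 over all mice, lay near the median cluster at 2.71. Klf3, a repressor that recruits CtBP, was at 7.73, 8.18, 8.44, 8.19, 7.99 and 8.05 in Zfp148gt/+ mice, against 8.21, 8.07, 8.09, 8.10, 8.02 and 7.96 in controls. Zfp148gt/+ mice 783 and 892 lay outside the narrow range of the controls, one below and one above, and the ratio of the means was 1.02 (0.863 to 1.20).

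Among Klf7, Klf13 and Klf15, Klf7 spread more in Zfp148gt/+ mice, Klf13 more in controls and Klf15 alike in both. Klf7, known from developing neurons and adipose tissue, was at 4.24, 2.89, 3.85, 2.51, 2.76 and 3.70 in Zfp148gt/+ mice, against 4.01, 3.66, 4.15, 3.23, 3.21 and 3.25 in controls. Mice 891, 893 and 897 were below every control and mouse 783 was above, so the SD was 0.70 in Zfp148gt/+ mice and 0.42 in controls, and the interval around the log2 fold change of -0.26 ran from -0.90 to 0.38. It was -0.44 without mouse 783 and -0.10 without mouse 893. A dimmer Klf7 cluster, at a mean of 2.77 over all mice against a median of 2.71 over all clusters, had a log2 fold change of -0.18 (-0.63 to 0.27). With the stromal score as a covariate Klf7 was at 0.02. Klf13, a factor of T cells and heart, was at 3.97, 3.93, 3.94, 3.90, 3.68 and 3.90 in Zfp148gt/+ mice and at 4.48, 3.71, 3.65, 3.55, 4.14 and 3.56 in controls. Here the Zfp148gt/+ mice lay close together, with an SD of 0.11 against 0.38 in controls, a difference in spread that was not tested, and the log2 fold change was 0.04 (-0.29 to 0.37). T cell markers had lower means in 9 and higher means in 3 of 12, where 45.2% of all clusters had a lower mean. Their score was 3.92 ± 0.38 in Zfp148gt/+ mice and 4.25 ± 0.56 in controls. Of them 1, Itgae, was lower at an unadjusted limma p under 0.05, as were 2.88% of all clusters. The part of T cells in Klf13 or Klf2 was not tested. Klf15, a factor of glucose and amino acid metabolism, was at 3.07, 2.80, 3.76, 3.73, 3.26 and 3.57 in Zfp148gt/+ mice, against 3.60, 3.18, 2.55, 3.26, 3.02 and 3.57 in controls. It had the largest positive difference of the 10, 0.17 on the log2 scale with an interval of -0.27 to 0.61 (adjusted p = 0.880 in limma), and Zfp148gt/+ mice 892 and 893 lay above all controls. That difference was 0.04 without control mouse 888 and 0.28 without mouse 891.

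The 7 Kruppel-like genes outside the list divided into 3 higher and 4 lower, and none was called. Klf1, the factor of red cell precursors, was at 2.83 ± 0.28 in Zfp148gt/+ mice and 2.42 ± 0.27 in controls, and Klf8, a repressor, at 2.32 ± 0.58 in Zfp148gt/+ mice and 1.81 ± 0.12 in controls (SD, n = 6 each). Their unadjusted limma p were 0.0202 and 0.0362, with adjusted p of 0.725 for both, and 3.88% of all clusters were higher at that level. Averaged over the 12 mice, Klf1 at 2.63 and Klf8 at 2.06 were dimmer than the median cluster at 2.71. Klf11, a TGF-β induced repressor like Klf10, was at 4.92 ± 0.30 in Zfp148gt/+ mice and 4.65 ± 0.17 in controls, and Klf16 at 4.55 ± 0.21 in Zfp148gt/+ mice and 4.86 ± 0.31 in controls, with limma adjusted p of 0.744 and 0.736. Klf12, Klf14 and Klf17 had log2 fold changes of -0.33, -0.08 and -0.18. Among the Sp factors, the closest relatives of the family, 5 of 8 were higher and 3 lower, the extremes being Sp6 at 0.17 and Sp3 at -0.16, with adjusted p of 0.803 and 0.813 in limma.

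**Figure D4:**
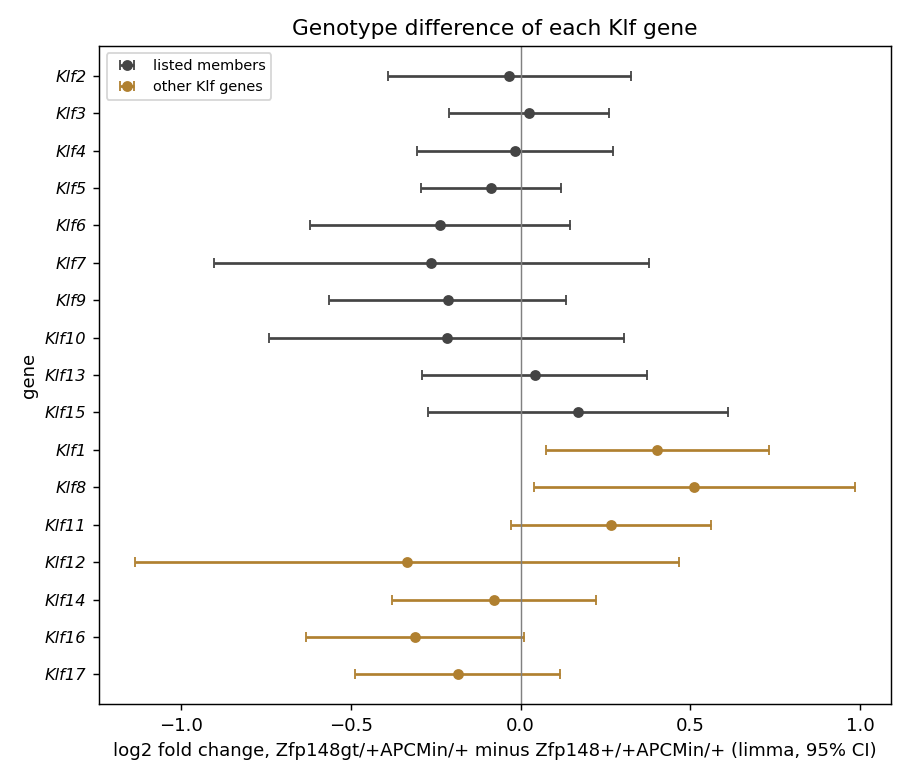
Log2 fold change of each Klf gene, Zfp148gt/+APCMin/+ minus Zfp148+/+APCMin/+, with the 95% confidence interval of limma, listed members in dark grey and other Klf genes in brown. The intervals of all 10 members include 0, and those of Klf1 and Klf8, which are dim, do not.

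Immediate early genes, among which Klf4, Klf6 and Klf10 are often counted, were higher in 12 and lower in 7 of 19, with a score of 4.86 ± 0.12 in Zfp148gt/+ mice and 4.80 ± 0.16 in controls. At an unadjusted limma p under 0.05, 1 of them was higher (3.88% of all clusters were) and 2 were lower (2.88% were). The 2 lower ones were Dusp1, shared with the glucocorticoid list, and Ier2. Ier2, an early response factor, was at 5.02 ± 0.46 in Zfp148gt/+ mice and 5.67 ± 0.30 in controls, with an adjusted p of 0.725 in limma. Klf4 had an r of 0.21 with that score over 12 mice (permutation p = 0.511, rho = 0.16, permutation p = 0.618), and of -0.29 without mice 897 and 885. The genes whose signal ran most like that of Klf4 over the 12 mice, once each genotype mean was taken out, were Olfr1010, Cartpt, Cibar2, Scrib and 4930480K15Rik, with Pearson r of 0.88 to 0.91. For Klf5 they were Fcrl6, Gm5069, Morc2b, Olfr692 and Eef2, with r of 0.87 to 0.95. These are the extremes of 22180 genes over 12 points, and of the 10 only Cartpt, Scrib, Gm5069 and Eef2 had a mean above the median signal of all clusters.

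**Figure D5:**
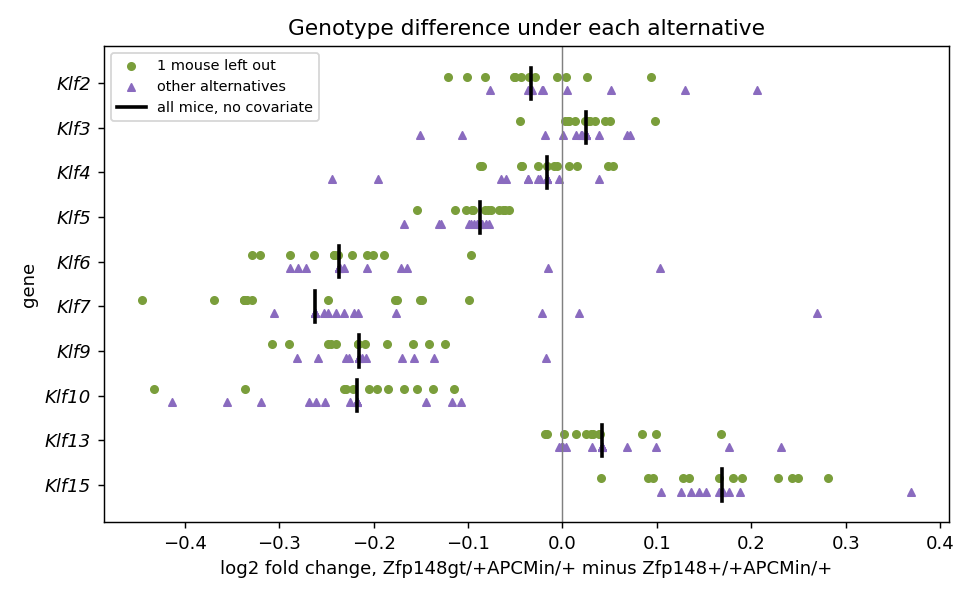
Log2 fold change of each member with all mice and no covariate (black line), with 1 mouse left out (green circles) and under the other alternatives (violet triangles). Klf5, Klf9 and Klf10 stayed below 0 and Klf15 above 0 in all of these, while the other 6 members had values on both sides.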

How the data were processed

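Total RNA of crypt-enriched tissue from 12 mice was labelled with the WT PLUS kit and hybridized to 1 array per mouse. The authors normalized the arrays by RMA in Affymetrix Expression Console and deposited 1 log2 value per transcript cluster and mouse. Values of 0.845 to 13.2 were taken as base 2, as RMA writes them, and the ratios rest on that. Neither the software version nor a build is given in the sources used here. RMA aims at like distributions of arrays, but the deposited ones still differed, with interquartile ranges of 2.69 to 3.00. It also compresses differences of dim clusters. Arrays carry no depth; their number limits the precision.

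Of 33793 clusters, 23521 carried 1 gene symbol, 1820 several and 8452 none in the annotation used, and only the first kind served to name genes. Groups and mouse numbers came from the sample labels. The labels do not tie mice to litters, so mice were unpaired. Genotypes were compared with limma 3.58.1 (lmFit, eBayes; R 4.3.3), with no filter and no covariate and with Benjamini-Hochberg adjustment over all clusters at a threshold of 0.05, and this step was tested on simulated data. Single values were compared by exact permutation over 924 assignments of 12 arrays into 6 and 6, and relations over 12 mice by 100000 permutations. Of 239 entries in the lists, 229 were measured. Named were the 10 members, Zfp148, the other Klf genes, up to 2 genes of smallest p per list and the 5 genes most like Klf4 and Klf5. Odc1, Thbd, S1pr1, Epcam and Krt8 fall outside that rule and were named as examples of their lists after their values were seen. The members and lists were chosen with earlier results of these data known. Alternatives changed the normalization, the filter, the variance model, the cluster rule and covariates, set mice 782 and 783 apart as a block because their numbers are neighbours (no label gives a batch), left out mice, and used the methods' t-test or the linear scale. Promoter sequences came from RefSeq, GRCm38.p6. Tables were joined in Python 3.11.15.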

Additional observations from a re-analysis of the deposited data

Results flagged for a closer look

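Within a genotype, 3 values lay apart from the other 5 mice by more than Dixon's 95% limit for 6 samples (a gap of over 0.625 of the range). They were Klf4 in control mouse 885, at 6.67 with the next control at 7.02, Klf10 in control mouse 888, at 4.59 with the next at 5.60, and Klf13 in Zfp148gt/+ mouse 897, at 3.68 with the next at 3.90. Chance flags about 1 in 20 groups, and 40 groups were looked at.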

How the results depend on the processing

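No member was called under any of the 27 alternatives, those that left out 1 mouse each included, but signs and sizes varied. For Klf5 the log2 fold change lay between -0.15 and -0.06 with 1 mouse left out, and it kept its sign in the other alternatives too. For Klf4 that range was -0.087 to 0.053, and quantile normalization once more gave 0.038, the interquartile range as a covariate -0.24 and the data without mice 891, 892 and 893 -0.20. The genotype difference of Klf5 minus Klf4 ran from -0.15 to 0.020 with 1 mouse left out, positive without mouse 892 or without control mouse 885, and was 0.066 without mice 891, 892 and 893. Of the members other than Klf4 and Klf5, 5 of 8 had a lower mean, 4 to 6 with 1 mouse left out, 7 on centring and 3 with the interquartile range as a covariate. With 1 mouse left out the log2 fold change ranged from -0.12 to 0.094 for Klf2, -0.045 to 0.098 for Klf3 and -0.018 to 0.17 for Klf13. Signs also turned on centring (Klf3 -0.019, Klf13 -0.0016), on quantile normalization (Klf2 0.052), with the stromal score (Klf7 0.018) or immediate early score (Klf13 -0.0037) as a covariate and on the linear scale (Klf2 0.0046). They turned with the interquartile range as a covariate (Klf2 0.21, Klf3 -0.11, Klf6 0.10, Klf7 0.27) and without mice 891, 892 and 893 (Klf2 0.13, Klf3 -0.15), both chosen after seeing the data. The cause was not tested. No paired analysis was possible because the labels tie no mouse to a litter.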
